A study of Homo sapiens with 4 samples.

Results

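Antioxidant enzymes that remove peroxides and superoxide were followed in the naïve human ESC line Elf1, in adherent 2-D culture and in 3-D scaffolds. The genes were listed by name, with earlier results of these data known: the peroxiredoxins PRDX1, PRDX2, PRDX3, PRDX4, PRDX5 and PRDX6, the thioredoxin gene TXN, the lipid peroxidase GPX4 and the superoxide dismutases SOD1 and SOD2. Of these 10 genes, 9 were matched by symbol to an identifier of the count tables, which list 60564 genes, and all 9 passed the filter on low counts, as did 22555 genes in all. SOD2, the mitochondrial superoxide dismutase, was not analysed here. The names used come from GENCODE release 44, which pairs SOD2 with another identifier than those of the release 30 tables, so any counts for it could not be matched by name.

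Total RNA was sequenced from Elf1 cells grown adherent on plastic coated with Matrigel (2-D) and from Elf1 cells dispersed to single cells, enclosed in a setting scaffold of polyethylene glycol (PEG-8-SH/PEG-8-Acr), and kept there for 21 days (3-D), with 2 libraries per condition. Cells of both conditions were kept in ESC expansion medium, which per the study's methods contained FGF2, CHIR99021, PD03296501, human LIF and the reducing agent 2-mercaptoethanol. The scaffold forms by reaction of thiol with acrylate groups, the line had been kept on mouse feeder cells before the feeder-free step, and a single cell line was used. Fewer transcripts of a gene per cell and fewer cells that express it cannot be told apart in such bulk samples. No culture time is given for the 2-D libraries. The study describes routine passaging in 2-D and growth without passaging in 3-D, so passaging and time in culture cannot be told apart from the condition.

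Superoxide dismutases turn superoxide into hydrogen peroxide, which peroxiredoxins reduce to water with a reactive cysteine. The oxidized cysteine of most peroxiredoxins is then reduced by thioredoxin, which thioredoxin reductase recharges from NADPH. GPX4 is a selenoprotein that reduces lipid hydroperoxides in membranes with glutathione and is known as the main brake on ferroptosis, an iron-dependent form of cell death. Pluripotent cells express these enzymes strongly, and the family divides its work by compartment: PRDX1 and PRDX2 in the cytosol, PRDX3 in mitochondria, PRDX4 in the endoplasmic reticulum, PRDX5 in several organelles and PRDX6 in the cytosol.

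The family split. In 3-D grown cells, 5 of the 9 genes (PRDX1, PRDX3, PRDX4, PRDX6 and TXN) fell, 3 genes (PRDX2, PRDX5 and GPX4) rose, and SOD1 did not pass the test. The median log2 fold change (3-D over 2-D) was −0.13 for the 9 genes and −0.00014 for all tested genes. A gene is called here when the Benjamini-Hochberg adjusted p of edgeR's quasi-likelihood test, taken over all tested genes, is below 0.05. SE stands for standard error, on the log2 scale. In all, 7.90% of the tested genes were called, 4.54% as higher and 3.36% as lower in 3-D grown cells. All 9 genes lie in the top quintile of the tested genes by level, at 49.0 normalized CPM or more, where 25.2% were called. Without 2-D replicate 1, 2 of the 9 genes were called higher and 3 lower, and without 2-D replicate 2, 1 was called higher and 3 lower. DESeq2 called 1 higher, GPX4, and 5 lower, and did not call the rises of PRDX2 (adjusted p = 0.126) and PRDX5 (adjusted p = 0.0805). Every peroxiredoxin that DESeq2 called therefore fell. All changes were modest, from a fall of the mean by 18.0% for PRDX1 to a rise of 20.4% for GPX4. The conditions did not overlap in 8 of the 9 genes, but neither did they in 50.5% of all tested genes. A lack of overlap therefore says little by itself.

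The start regions of genes from both sides of this split are shown to place the data on sequence. RefSeq promoter windows (GRCh38.p14) were matched for 6 of the 9 genes, and each sequence below is the 250 bases before the start that RefSeq gives, 5′ to 3′ on the strand of the gene. Capitals mark the GC box letters GGGCGG and the TATA box letters TATAAA, on either strand. TXN (chr9:110256508-110256757, minus strand) and PRDX3 (chr10:119178813-119179062, minus strand) fell, and PRDX5 (chr11:64317871-64318120, plus strand) and GPX4 (chr19:1103744-1103993, plus strand) rose.
TXN: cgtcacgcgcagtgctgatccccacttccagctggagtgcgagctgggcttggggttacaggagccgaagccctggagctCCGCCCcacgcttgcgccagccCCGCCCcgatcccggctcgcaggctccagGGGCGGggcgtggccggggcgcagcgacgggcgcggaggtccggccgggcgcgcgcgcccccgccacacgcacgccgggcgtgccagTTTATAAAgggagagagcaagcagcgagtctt
PRDX3: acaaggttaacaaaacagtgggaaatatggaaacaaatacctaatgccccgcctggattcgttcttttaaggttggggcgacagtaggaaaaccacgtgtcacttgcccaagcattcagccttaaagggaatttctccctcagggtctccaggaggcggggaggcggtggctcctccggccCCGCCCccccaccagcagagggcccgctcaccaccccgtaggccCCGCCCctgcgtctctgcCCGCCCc
PRDX5: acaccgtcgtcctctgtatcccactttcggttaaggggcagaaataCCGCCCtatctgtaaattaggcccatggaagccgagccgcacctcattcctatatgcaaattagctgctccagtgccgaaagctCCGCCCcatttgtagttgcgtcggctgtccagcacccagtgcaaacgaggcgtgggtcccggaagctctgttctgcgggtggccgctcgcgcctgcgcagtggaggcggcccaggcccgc
GPX4: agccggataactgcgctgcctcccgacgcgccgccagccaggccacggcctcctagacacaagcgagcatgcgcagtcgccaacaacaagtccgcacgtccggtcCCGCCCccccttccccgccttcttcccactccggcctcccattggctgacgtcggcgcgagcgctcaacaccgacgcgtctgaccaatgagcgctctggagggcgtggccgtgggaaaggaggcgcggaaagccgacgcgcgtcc

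A GC box was present in the windows of all 6 genes, which include PRDX2 and PRDX4, and in 42.6% of 35116 windows of the same length. TXN alone of the 6 held TATA box letters, where matches on both strands overlap, and 10.7% of all windows did. The core letters of the antioxidant response element, TGACNNNGC on either strand, were in none of the 6 windows and in 10.9% of all windows. At that share an absence from 6 windows says little, and sequence outside the 250 bases was not searched. The RefSeq start lay 12 bases inside the GENCODE gene for GPX4 and 3231 bases inside it for PRDX4, and coincided with the GENCODE start for the other 4 genes. PRDX1, PRDX6 and SOD1 were not matched.

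PRDX1, the main cytosolic peroxiredoxin (chromosome 1, 45510914 to 45542732, minus strand, hg38), was the most abundant of the 9 genes and fell in 3-D grown cells. Its TMM-normalized CPM, which are counts scaled to a common library size, were 654 and 676 for 2-D and 554 and 538 for 3-D libraries. Both 3-D libraries lay below both 2-D libraries. The means were 665 ± 15.9 and 546 ± 11.6 (SD, n = 2 each), and the log2 fold change was −0.29 (SE 0.03, edgeR adjusted p = 2.11e-04). Its exons share 501 bases with exons of MMACHC on the opposite strand, a gene of vitamin B12 handling whose log2 fold change was −0.32 (edgeR adjusted p = 2.05e-04). The sources used here do not state whether counting used the strand of a read, so reads of that stretch cannot be assigned to either gene with certainty.

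PRDX2, the other typical cytosolic peroxiredoxin (chromosome 19, 12796820 to 12801800, minus strand), went the opposite way to PRDX1. Normalized CPM were 94.1 and 93.9 in 2-D and 103 and 106 in 3-D libraries. The conditions did not overlap, and the rise was of 0.15 on the log2 scale (SE 0.03, edgeR adjusted p = 0.0115). This call is a weak one. DESeq2 gave an adjusted p of 0.126, and edgeR gave 0.118 when 2-D replicate 1 was left out and 0.132 when 2-D replicate 2 was. When libraries were scaled by size alone, the log2 fold change was 0.09 and the adjusted p 0.126. An antisense RNA without a symbol, ENSG00000267062, shares 247 exonic bases with PRDX2 and had a log2 fold change of 0.06 (edgeR adjusted p = 0.630).

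Because PRDX1 and PRDX2 moved apart, their balance within a library changed, whatever the scaling between libraries. PRDX1 had 6.95 and 7.20 counts per PRDX2 count in 2-D and 5.36 and 5.09 in 3-D libraries. With 2 against 2 libraries an exact permutation test cannot go below p = 0.333, and none was run.

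Among the peroxiredoxins found in mitochondria, PRDX3 fell and PRDX5 rose, the latter by a call that did not hold in every fit. PRDX3, the peroxiredoxin of the mitochondrial matrix (chromosome 10, 119167720 to 119178812, minus strand), had 161 and 166 normalized CPM in 2-D and 133 and 139 in 3-D libraries. Both 3-D values were below both 2-D values, a fall of 0.27 on the log2 scale (SE 0.03, edgeR adjusted p = 4.98e-04). PRDX5, which is found in mitochondria, peroxisomes and the cytosol (chromosome 11, 64318121 to 64321811, plus strand), had 62.8 and 58.8 normalized CPM in 2-D and 70.5 and 69.5 in 3-D libraries. It rose by 0.20 on the log2 scale with no overlap between conditions (SE 0.04, edgeR adjusted p = 0.0104). The call of PRDX5 rested on 2-D replicate 2, the lowest library, without which the log2 fold change was 0.16 and the adjusted p 0.208. The adjusted p of PRDX5 was also above the threshold with DESeq2 (0.0805) and when libraries were scaled by size alone (0.0521). Counts of PRDX3 per count of PRDX5 were 2.56 and 2.83 in 2-D and 1.89 and 2.00 in 3-D libraries, so the 2 conditions were separate in this ratio as well.

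PRDX4, which acts in the endoplasmic reticulum where disulfide formation releases hydrogen peroxide (chromosome X, 23664262 to 23686397, plus strand), was nearly equal between replicates. It had 213 normalized CPM in each 2-D library and 192 and 189 in the 3-D libraries. The fall was of 0.16 on the log2 scale (SE 0.03, edgeR adjusted p = 0.00566). With either 2-D library left out the log2 fold change was −0.16 still, but the adjusted p came to 0.0875 (2-D replicate 1 left out) or 0.0872 (2-D replicate 2 left out).

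PRDX6, a peroxiredoxin that uses glutathione in place of thioredoxin and also acts on phospholipids (chromosome 1, 173477330 to 173488815, plus strand), changed least among the called genes. Normalized CPM were 283 and 281 in 2-D and 261 and 255 in 3-D libraries. These did not overlap, and the log2 fold change was −0.13 (SE 0.03, edgeR adjusted p = 0.0210). The adjusted p rose to 0.262 without 2-D replicate 1, to 0.204 without 2-D replicate 2 and to 0.165 with edgeR's likelihood ratio test.

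TXN, a thioredoxin and electron donor of peroxiredoxins (chromosome 9, 110243810 to 110256507, minus strand), also fell. It had 143 and 142 normalized CPM in 2-D and 123 and 122 in 3-D libraries. The spread within a condition was small beside the gap between conditions, and the log2 fold change was −0.22 (SE 0.03, edgeR adjusted p = 6.92e-04).

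GPX4 (chromosome 19, 1103982 to 1106791, plus strand) rose most of the 9 genes. It had 81.3 and 82.9 normalized CPM in 2-D and 94.3 and 103 in 3-D libraries. Replicates were farther apart in 3-D than in 2-D, yet the conditions did not overlap. The means were 82.1 ± 1.18 and 98.9 ± 6.38 (SD, n = 2 each), and the log2 fold change came to 0.27 (SE 0.04, edgeR adjusted p = 0.00198). Beside TXN, its fellow in peroxide removal through thiols, the balance moved from 1.76 and 1.72 TXN counts per GPX4 count in 2-D to 1.30 and 1.19 in 3-D libraries.

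SOD1, the cytosolic copper and zinc superoxide dismutase (chromosome 21, 31659666 to 31668931, plus strand), had 101 and 99.7 normalized CPM in 2-D and 103 and 92.5 in 3-D libraries. The 3-D libraries lay on both sides of the 2-D libraries. The log2 fold change was −0.04, with a 95% interval from −0.13 to 0.06 (SE 0.04, edgeR adjusted p = 0.708). It was −0.12 without 3-D replicate 1, with an adjusted p of 0.0423, and 0.035 without 3-D replicate 2, with an adjusted p of 0.636.

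**Figure D1:**
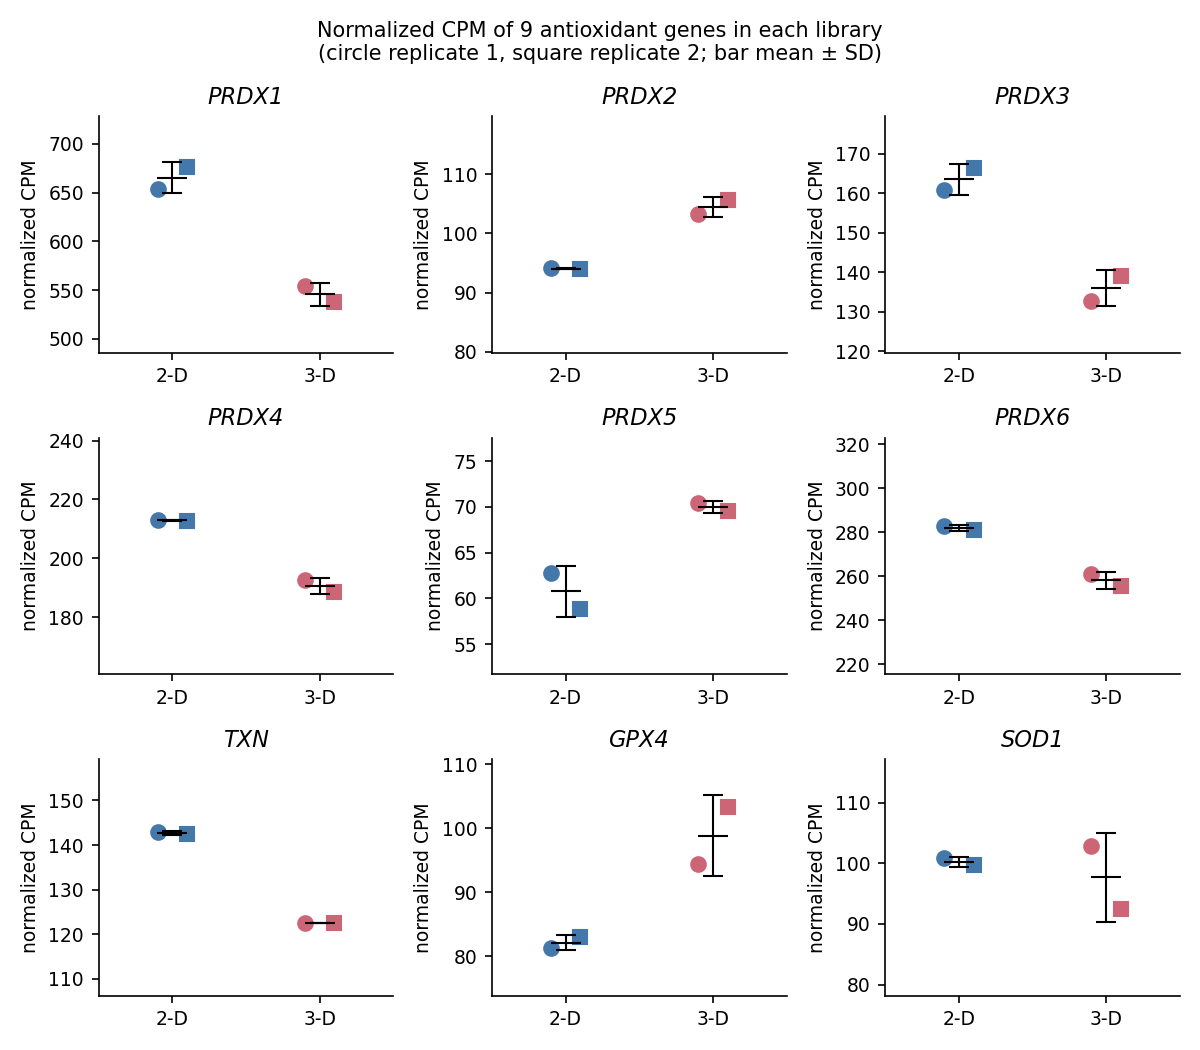
Normalized CPM (vertical axes, which differ between genes and do not start at 0) of the 9 genes in the 2-D and 3-D libraries, with each library as a point and the mean ± SD as a bar. The conditions are apart in 8 genes, as they are in 50.5% of all tested genes, and the 3-D values of SOD1, 103 and 92.5, enclose the 2-D values.

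**Figure D2:**
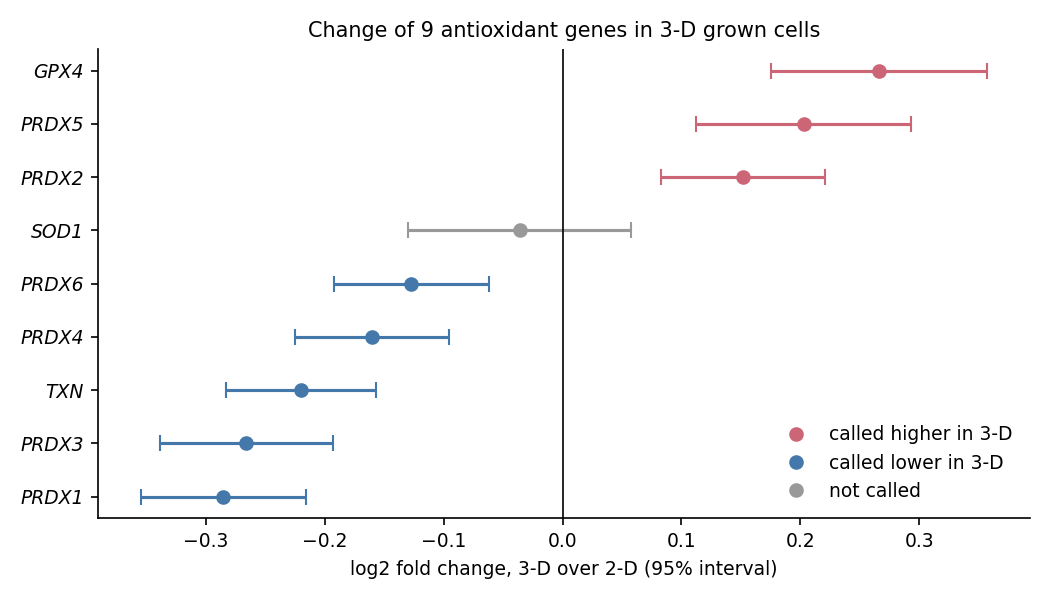
Log2 fold change, 3-D over 2-D (horizontal axis) with its 95% interval for the 9 genes, ordered by size and coloured by call. The intervals of 5 genes lie below 0, those of PRDX2, PRDX5 and GPX4 above 0, and that of SOD1 runs from −0.13 to 0.06.

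Levels can be compared between genes only per length, for which counts were divided by the merged exon length of the gene and scaled to a fixed total per library (TPM). In 2-D grown cells PRDX1 stood first with 1214 ± 51.3 TPM (SD, n = 2), followed by TXN with 434 ± 6.75, PRDX6 with 374 ± 4.85, PRDX4 with 352 ± 6.30 and PRDX5 with 217 ± 5.96. SOD1 (156 ± 1.64), PRDX3 (149 ± 6.27), PRDX2 (142 ± 2.48) and GPX4 (137 ± 4.50) followed, and neighbours among these 4 did not differ beyond their SD. By this length the first 5 genes kept their order in 3-D grown cells, from 936 ± 17.6 TPM for PRDX1 to 235 ± 7.15 for PRDX5. The 4 lower genes changed places, with GPX4 at 155 ± 16.2, PRDX2 at 148 ± 8.30 and SOD1 at 143 ± 4.94, which overlapped with their neighbours within the SD, and PRDX3 last at 116 ± 8.49. The order below PRDX1 depended on the length used. With the longest transcript, PRDX4 came second with 15.7% of the summed TPM of the 9 genes in 2-D and 15.6% in 3-D grown cells, ahead of TXN with 13.6% and 13.0%. By that length PRDX3 stood just above PRDX5 in 2-D (5.05% and 4.98%), GPX4 above PRDX5 in 3-D (6.52% and 6.35%), and SOD1 was last in 3-D with 4.37%. Since TPM of a library sum to a fixed total, these levels serve to order genes, and the conditions were compared on normalized CPM.

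As a share of the summed TPM of the 9 genes, which does not depend on the scaling between libraries, PRDX1 went from 37.8% and 38.7% in the 2-D to 34.9% and 34.4% in the 3-D libraries. GPX4 went from 4.29% and 4.34% to 5.44% and 6.04%, and PRDX5 from 7.09% and 6.58% to 8.69% in each 3-D library. PRDX4, PRDX6 and TXN were steadier. The share of PRDX6 was 11.9% and 11.7% in 2-D and 12.0% and 11.9% in 3-D libraries, and that of TXN 13.7% and 13.6% against 12.9% and 13.0%.

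The genes that rose and the genes that fell also differed in base composition. The GC content of the longest transcript was 56.7% to 62.5% in PRDX2, PRDX5 and GPX4, 53.7% in SOD1 and 36.8% to 50.3% in the 5 genes that fell. Across all tested genes, the median log2 fold change went from −0.04 in the quintile with the lowest GC content to 0.05 in that with the highest. The share called higher in 3-D grown cells went from 2.34% to 7.17% and the share called lower from 5.01% to 1.54% between these quintiles. When the fit was corrected for GC content and length of each gene, all 9 genes kept their direction. The log2 fold change of TXN, the gene with the lowest GC content, then became −0.13 (edgeR adjusted p = 0.0258) and that of PRDX6 −0.09 (adjusted p = 0.0847, no longer called). PRDX1, PRDX3 and GPX4 had −0.25, −0.24 and 0.24, with adjusted p of 0.00125, 0.00307 and 0.00622.

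**Figure D3:**
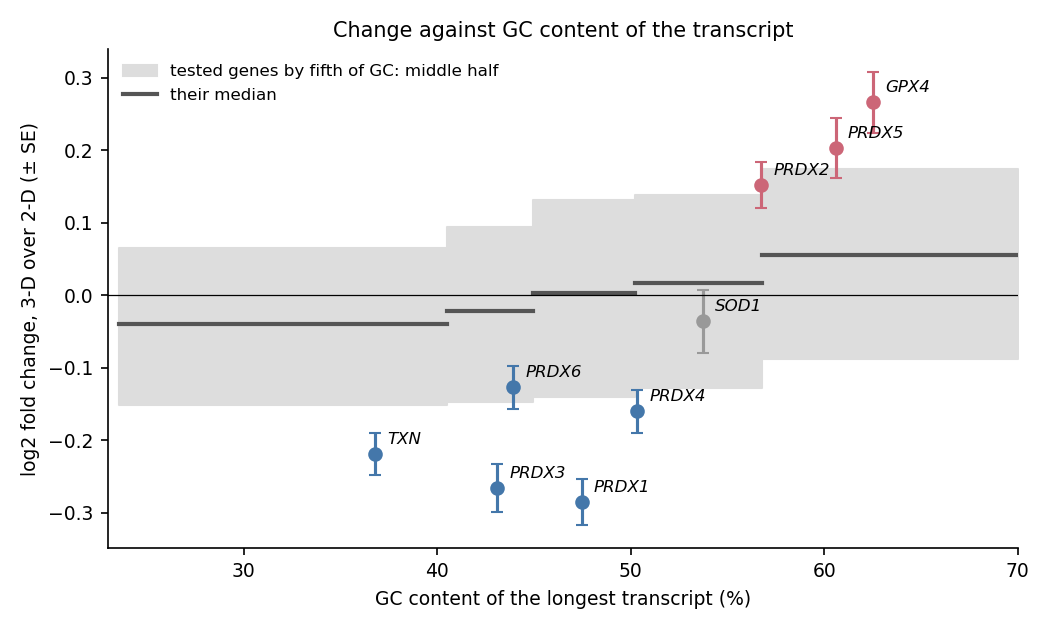
Log2 fold change, 3-D over 2-D (vertical axis, ± standard error) against the GC content of the longest transcript (horizontal axis, shown up to 70%), with the 9 genes as points and all tested genes as the median and interquartile range of each GC quintile. GPX4, PRDX5 and PRDX2 are the points at the upper right, and the 5 genes that fell lie to the left at 36.8% to 50.3% GC.

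Pseudogenes named after the 9 genes, which could draw reads from their parent genes, held few counts. They were annotated for 7 of the 9 genes and together came to at most 1.89% of the counts of the parent gene, in PRDX3, whose PRDX3P1 (92.6% identical to PRDX3) had 57 and 49 counts in 2-D and 23 and 18 in 3-D libraries. PRDX1P1 had 21, 12, 4 and 2 counts in 2-D replicates 1 and 2 and 3-D replicates 1 and 2, and TXNP4 had 25, 23, 7 and 8, in the same order. The pseudogenes of PRDX4, PRDX5 and SOD1 had 0 counts in every library. The 6 pseudogenes that passed the filter on low counts were not called, with edgeR adjusted p of 0.112 or more, and the others were not tested. How reads that align to both a gene and its pseudogene were counted was not examined.

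Around these enzymes, 107 further genes in 7 lists from general knowledge were examined, and 96 of them were tested. Of these, 7 rose and 19 fell in 3-D grown cells, 27.1% of those tested beside 7.90% of all genes. Calls depended on level, with 0.576% of tested genes called in the lowest quintile by level and 25.2% in the top quintile. The list genes were not matched to other genes by level, so the 2 shares are not on equal terms. The median log2 fold change was −0.03. All 26 kept their direction with each library left out, but 11 were still called without 2-D replicate 1 (5 higher and 6 lower) and 11 without 2-D replicate 2 (4 higher and 7 lower). Calls in the lists below are therefore given with their values and are firm only as far as these counts go. The conditions did not overlap in any of the 26 genes, so leaving out a library could hardly reverse a direction. The kept directions therefore add no support.

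In the thioredoxin and glutaredoxin system, 1 of 17 tested genes rose and 4 fell, with a median log2 fold change of −0.08. GLRX5, a glutaredoxin of mitochondrial iron-sulfur cluster assembly, fell from 78.6 and 75.1 to 65.4 and 61.6 normalized CPM (log2 fold change −0.27, edgeR adjusted p = 0.00163). GLRX3, SESN3 and TMX1, a membrane-bound thioredoxin-like protein, fell by 0.15, 0.12 and 0.13 on the log2 scale, and TXNL1 rose by 0.14. These 4 genes were not called without 2-D replicate 1 or without 2-D replicate 2, nor were TXNL1 and TMX1 without 3-D replicate 2. The cytosolic thioredoxin reductase TXNRD1, which recharges TXN, had 280 and 286 normalized CPM in 2-D and 269 and 270 in 3-D libraries and was not called (log2 fold change −0.07, edgeR adjusted p = 0.201). The mitochondrial thioredoxin TXN2 had a log2 fold change of 0.19 and was not called (edgeR adjusted p = 0.123), with a sign opposite to that of TXN. TXNRD1 and TXN2 were chosen for mention after their values were seen.

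Among glutathione synthesis and transferase genes, 1 of 16 rose and 4 fell, with a median of −0.05. GSTO1, an omega class transferase, fell from 93.7 and 97.7 to 73.9 and 69.6 normalized CPM, the largest fall among the called genes of these lists (log2 fold change −0.41, edgeR adjusted p = 6.12e-05). SLC3A2 and SLC7A11, which together form the cystine importer, fell by 0.18 and 0.15 on the log2 scale, and MGST3 by 0.22. GSTP1, a pi class transferase, rose from 430 and 423 to 475 and 489 normalized CPM (log2 fold change 0.18, edgeR adjusted p = 0.00367). SLC7A11 and MGST3 lost their call without 2-D replicate 1, 2-D replicate 2 or 3-D replicate 2, SLC3A2 without 2-D replicate 1 and GSTP1 without 2-D replicate 2.

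Of 11 other peroxide and superoxide enzymes tested, 2 fell and 0 rose, and the median was 0.06. PARK7, a redox-sensing protein known from inherited Parkinson disease, fell from 130 and 125 to 102 and 101 normalized CPM (log2 fold change −0.33, edgeR adjusted p = 6.88e-05). GPX1, the cytosolic glutathione peroxidase and like GPX4 a selenoprotein, fell from 80.5 and 81.6 to 64.5 and 71.7, so GPX1 and GPX4 changed in opposite directions (log2 fold change of GPX1 −0.25, edgeR adjusted p = 0.00478). GPX1 has a GC content of 64.1%, above that of GPX4.

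The NRF2 list holds the transcription factor NFE2L2, its inhibitor KEAP1, further regulators such as CUL3, BACH1, MAFG and MAFK, and known target genes. In it 4 of 20 genes rose and 0 fell, with a median of 0.04. The genes that rose included FTL, the ferritin light chain, and PGD and TKT, enzymes of the pentose phosphate pathway, of which PGD makes NADPH. FTL had 618 and 619 normalized CPM in 2-D and 713 and 711 in 3-D libraries (log2 fold change 0.20, edgeR adjusted p = 0.00111). PGD and TKT rose by 0.22 and 0.13 on the log2 scale, the latter not called without 2-D replicate 1 or 2-D replicate 2. Of the classical targets, NQO1 and HMOX1 had log2 fold changes of −0.01 and 0.04 and were not called (edgeR adjusted p = 0.904 and 0.854), and both were chosen for mention after their values were seen.

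Selenoproteins and the genes of selenocysteine insertion had 1 of 25 genes higher and 7 lower, with a median of −0.12, while the selenoprotein GPX4, which is not in that list, rose. GPX1 is counted both here and above. SEPHS2, which makes the selenium donor, fell from 71.2 and 67.2 to 59.3 and 58.7 normalized CPM (log2 fold change −0.23, edgeR adjusted p = 0.00453). SELENOI, SELENOF and SELENOW fell by 0.14, 0.21 and 0.14 on the log2 scale. SELENON, a protein of the endoplasmic reticulum, rose from 99.9 and 98.6 to 116 and 116 normalized CPM (log2 fold change 0.23, edgeR adjusted p = 7.79e-04). SELENOI and SELENOW lost their call without 2-D replicate 1 or 2-D replicate 2, SEPHS2 without 2-D replicate 1 and SELENOF without 2-D replicate 2 or 3-D replicate 1.

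In the ferroptosis list 3 of 9 tested genes fell and 0 rose, with a median of −0.04. The list joins genes of ferroptosis suppression with genes of lipid peroxidation, so its count and median describe no single direction of the process. The transferrin receptor TFRC, which brings iron into the cell, fell from 278 and 282 to 244 and 247 normalized CPM (log2 fold change −0.19, edgeR adjusted p = 0.00209), a call lost without 2-D replicate 2. VKORC1L1, which reduces vitamin K, and FDX1, a mitochondrial ferredoxin, fell by 0.18 and 0.31, the first not called without 2-D replicate 1 and the second without 2-D replicate 1 or 2-D replicate 2. NADPH oxidases and their subunits, which make superoxide, were little expressed. Only 5 of the 12 passed the filter on low counts and 0 were called, with summed normalized CPM of 24.7 in each 2-D library and 23.9 and 26.2 in the 3-D libraries.

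**Figure D4:**
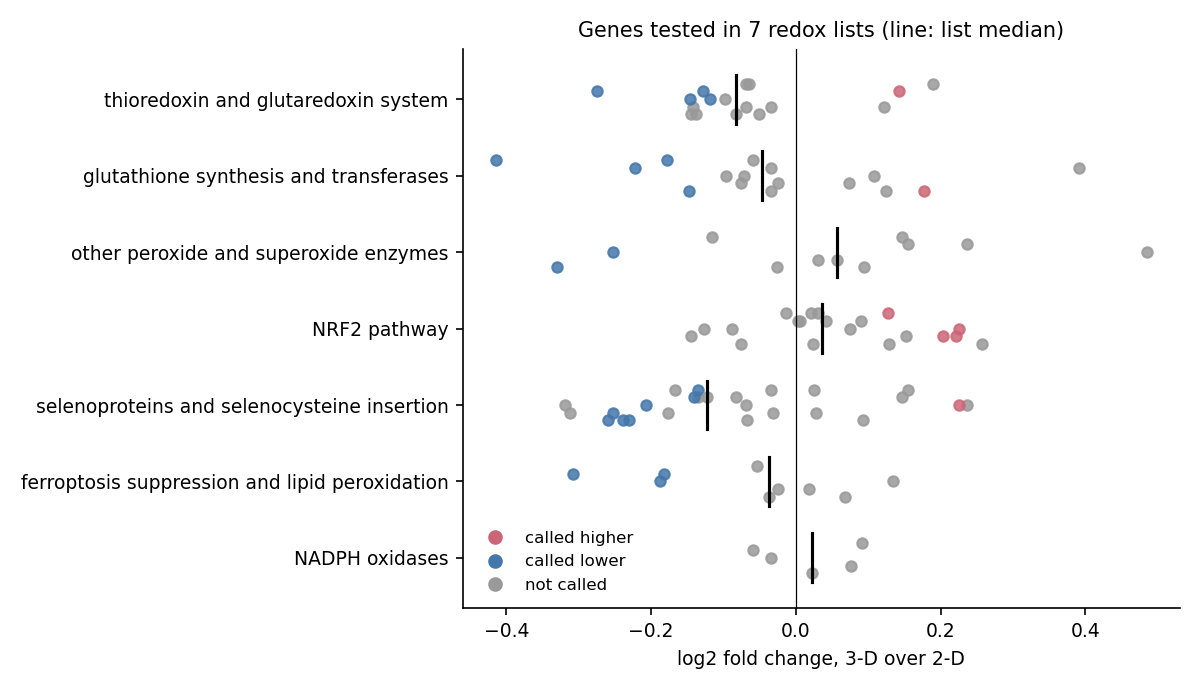
Log2 fold change, 3-D over 2-D (horizontal axis) of each tested gene in 7 redox lists (vertical axis), coloured by call, with a line at the median of a list. List medians run from −0.12 for selenoproteins and selenocysteine insertion to 0.06 for other peroxide and superoxide enzymes.

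Library totals ranged from 30114220 to 33833778 counts in 2-D and from 18276147 to 21154409 in 3-D grown cells, so values of 3-D libraries rest on fewer counts. Mitochondrially encoded genes held 5.10% to 5.30% of the counts in 2-D and 8.33% to 8.50% in 3-D libraries. The cells expressed the core pluripotency markers, with 109 to 132 normalized CPM of POU5F1 and 1721 to 1812 of LIN28A. Naïve markers ranged widely, with ZFP42 at 153 to 165 normalized CPM, TFCP2L1 at 22.1 to 23.8, KLF17 at 0.465 to 1.07 and DPPA5 at 0.130 or less. Of 9 naïve markers tested 0 were called, with a lowest edgeR adjusted p of 0.120, and their summed level was 244 in each 2-D library and 248 and 233 in the 3-D libraries. Of 8 primed markers tested, SFRP2, THY1 and SALL2 were called and rose by 0.28, 0.22 and 0.21 on the log2 scale. Among the 8, 6 log2 fold changes were positive and 2 negative. The summed level of the primed markers was 1551 and 1577 in 2-D and 1594 and 1636 in 3-D libraries. Of the 10 fibroblast markers, 8 were tested, and COL1A1, COL3A1 and POSTN were called higher in 3-D grown cells. COL1A2 had 325 and 316 normalized CPM in 2-D and 301 and 325 in 3-D libraries. It was not called (log2 fold change −0.04, edgeR adjusted p = 0.649). Among the 8, 7 log2 fold changes were positive and 1 negative. In the primed and the fibroblast list 37.5% of tested genes were called, beside 7.90% of all tested genes and 25.2% of the top quintile by level. The summed level of the fibroblast markers was 464 to 472 normalized CPM in 2-D and 475 to 519 in 3-D libraries, with DCN and LUM at 0.948 or less, and the part of primed and fibroblast markers in the changes of the antioxidant genes was not tested.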

How the data were processed

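RNA was sequenced from 2-D and 3-D grown Elf1 cells. The authors trimmed reads with Trim Galore! 0.6.3, mapped them to hg38 with HiSat2 2.1.0 and assigned them to GENCODE release 30 genes with featureCounts 1.6.4. Counts were deposited as whole numbers without normalization, by gene and library. The deposited normalized signal is the count divided by 1 size factor per library, computed by the authors with DESeq2, and that table also holds the authors' comparison, which was not used.

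Counts were tested with edgeR 4.0.16 (R 4.3.3; filterByExpr, TMM, quasi-likelihood test with condition alone), with Benjamini-Hochberg adjustment over 22555 tested genes. Standard errors are the log2 fold change over the square root of F. Symbols, positions, lengths and GC content come from GENCODE release 44 on hg38, which matched 60295 of 60564 identifiers, and pseudogenes were aligned with blastn 2.17.0. Counts between replicates differed by more than sampling noise (chi-square per degree of freedom 1.91 for 2-D and 2.91 for 3-D), and all 4 libraries were used. The study calls them independent biological replicates. The procedure was tested on simulated counts.

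Genes and lists were chosen with earlier results of these data known. The naming rule takes all members, the called genes of a list (up to 6 by p), for each member the copy or overlapping gene with most counts, and the 3 genes nearest in pattern to the called member with the smallest p. A gene of the lists that the rule takes is not reported here. Alternatives used DESeq2 1.42.0 and limma 3.58.1, and each library was left out in turn, where a lone library is assumed to vary like the other condition.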

Additional observations from a re-analysis of the deposited data

How the results depend on the processing

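Of 135 repeats of the fold changes of the 9 genes, 118 kept direction and side of the threshold, and PRDX1, PRDX3, TXN and GPX4 were called in all 15 alternatives. The log2 fold change of SOD1 ran from −0.12 without 3-D replicate 1 to 0.035 without 3-D replicate 2, a reversal. The number of genes called higher, 1024 in all, was 651 with edgeR's likelihood ratio test, 511 with DESeq2, 514 when scaled by library size alone and 448 to 1324 with a library left out. The number called lower, 758, was 488, 284, 1879 and 326 to 1066 in the same order, and 1288 with the replicate block and offsets for length and GC content together. Library size alone moved the median of all tested genes to −0.06 on the log2 scale. Of the 9 genes, 1 was called higher with DESeq2 and 1 with library size alone, and with a library left out 1 to 3 were called higher and 3 to 6 lower. Of the list genes, 9 were called lower with the likelihood ratio test and 7 with DESeq2, and with a library left out 4 to 7 were called higher and 6 to 18 lower. With the length of the longest transcript, the share of PRDX1 was 36.1% in 2-D and 32.9% in 3-D grown cells, and the summed TPM 3540 and 3028. The cause of these shifts was not tested. Deviations from the condition mean had a correlation of −0.0079 between libraries of the same replicate number, over all tested genes. Genes of low counts weigh as much as others in it, so it does not settle whether replicate numbers pair the libraries. The replicate block gave 1223 genes called higher and 944 lower and changed no call among the 9 genes. With 2 libraries per condition, p-values measure the spread between these libraries alone.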

Other observations

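The genes whose pattern was nearest to that of PRDX1, the called gene with the smallest p, were sought by the Euclidean distance of log2 normalized CPM, centred per gene, over the 4 libraries. They were ENSG00000277895 (distance 0.0161), ENSG00000268205 (distance 0.0172) and CA2, a carbonic anhydrase (distance 0.0216). The log2 fold change was −0.27 for ENSG00000268205 and −0.30 for CA2 (edgeR adjusted p = 0.00144 and 0.0158), and ENSG00000277895, at a mean of 1.89 (2-D) and 1.53 (3-D) normalized CPM, was not called (adjusted p = 0.498).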
